A study of Mus musculus with 12 samples.

Results

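The G protein-coupled receptors for lipid mediators were examined in hippocampal microglia at 2 ages. They were chosen by name: Gpr183, S1pr1, Ptger4, Ptafr, Ltb4r1 and Ltb4r2, 6 genes. The table held 5 of these among its 545 immune genes; S1pr1 was not analysed here. Microglia, the resident macrophages of the brain, came from the hippocampus of male Balbc pups raised under control conditions, 6 of them aged 14 days (P14) and 6 aged 28 days (P28). Each animal of an age came from its own litter, so the samples of an age are separate animals. Cells were isolated on a Percoll gradient and sorted by flow cytometry, and their RNA was amplified and counted with the nCounter mouse immune panel, an assay that tags every target RNA with a coloured barcode and counts the tags directly. The study as a whole asks how stress in early life affects maturing microglia, and the comparison here asks how these receptors differ between the ages in unstressed males.

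Lipid mediators are short-lived signals cut or oxidised from membrane lipids and sterols, and cells read them through receptors that cross the membrane repeatedly and signal through G proteins. Gpr183, also called EBI2, binds oxysterols and guides B cells, T cells and dendritic cells within lymphoid organs. Ptger4 encodes EP4, a receptor for prostaglandin E2 that raises cyclic AMP, and Ptafr encodes the receptor for platelet-activating factor, an ether phospholipid that attracts and activates phagocytes. Ltb4r1 and Ltb4r2 encode the high-affinity and the low-affinity receptor for leukotriene B4, a chemoattractant best known from neutrophils.

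Levels are given as scaled counts, which are raw barcode counts divided by a factor per sample from 6 reference genes. The reference genes themselves were not all level between the ages on this scale. Polr1b ran from 191 to 254 at P14 and from 119 to 162 at P28, and Oaz1 from 5493 to 6158 and from 4424 to 5294. Gapdh went the other way, from 3535 to 5408 at P14 and from 5528 to 6090 at P28. For Alas1, Sdha and Tbp the ages overlapped. Depth, as the total raw count of the 545 genes, was 356398 to 1316430 per sample at P14 and 1025196 to 1534665 at P28. Each lane had a background threshold, 2 SD above the mean of its negative-control probes, that lay between 12.9 and 33.4 counts, and genes over it in at least 40% of the 12 samples were tested (the presence rule). Of the 545 genes, 366 were tested, and Gpr183, Ptger4 and Ptafr were among them. The 6 microglial markers Cx3cr1, Csf1r, Trem2, Itgam, Tgfbr1 and Ptprc were all tested, and their summed level ran from 194875 to 227915 scaled counts at P14 and from 207508 to 246007 at P28. Trem2, a lipid-sensing receptor, was the marker among these that was called, higher at P28 (0.71 ± 0.13 on the log2 scale), a difference of -0.07 when counts were scaled to the positive controls alone. P14 samples 4 and 5 stood apart. Their raw counts summed to 772723 and 356398, against 1137106 to 1316430 in the other 4 P14 samples, and both lay below all 4 others in 172 of the 366 genes and above them in 48. The tests of the receptor genes are therefore given with and without them. The positive controls, RNAs added in fixed amounts to each lane, did not overlap between the ages, with a geometric mean of 542 to 651 counts at P14 and 1069 to 1235 at P28. The sources used here do not say which lanes were run together. Run and age therefore cannot be told apart, in that measure or in the comparisons of the ages below.

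Microglia at P28 had more RNA of the oxysterol receptor Gpr183 and of the prostaglandin receptor Ptger4, relative to the reference genes, than microglia at P14. The gene of the platelet-activating factor receptor, Ptafr, did not pass the test over all samples. Both leukotriene B4 receptor genes lay near the negative controls at both ages. Of the 3 genes tested, 2 were called higher at P28 and 0 lower by edgeR's quasi-likelihood test with Benjamini-Hochberg adjustment over the 366 genes at a threshold of 0.05. Over all 366 genes that test called 30.6%, with 16.7% higher and 13.9% lower. DESeq2 likewise called 2 higher and 0 lower, where it called 68 higher and 60 lower over all 366 genes. By edgeR 2 of the 3 had an unadjusted p under 0.05, as did 158 of the 366. The log2 fold changes of the 3 genes were 0.63 for Gpr183, 0.80 for Ptger4 and -0.02 for Ptafr, beside a median of 0.0026 over all 366.

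**Figure D1:**
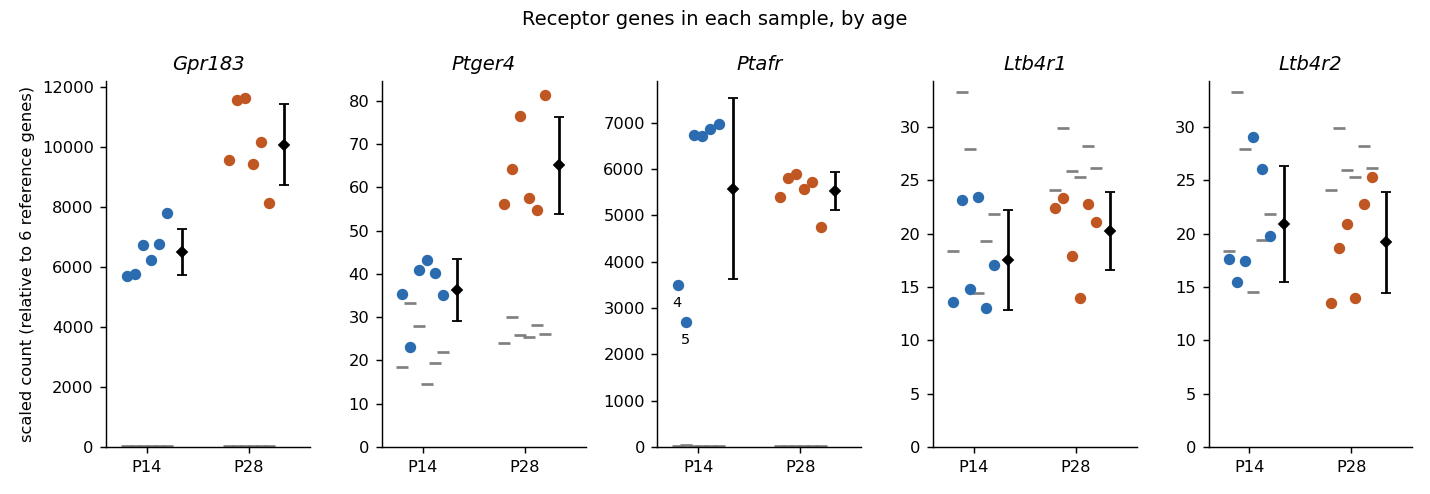
Scaled counts of the 5 receptor genes in each sample at P14 (blue, n = 6) and P28 (orange, n = 6), on linear axes that start at 0. Grey dashes are each lane's background threshold on the same scale, and black diamonds with bars are mean and SD. Gpr183 and Ptger4 do not overlap between the ages, and P14 samples 4 and 5 are the low points of Ptafr. Ltb4r1 and Ltb4r2 lie mostly below the dashes, and at P28 always.

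The sequences before the starts of the genes that were tested are shown because Gpr183 and Ptger4 both rose while Ptafr did not pass the test. Each is the 250 bases upstream of the RefSeq start in GRCm38.p6, written from 5′ to 3′ on the strand of the gene. Motifs were searched on both strands, and matches are in capitals: GAGGAA (the core of PU.1, a factor of the myeloid lineage), GGGCGG (Sp1), TATAAA (the TATA box), TGANTCA (AP-1) and TGACG (the core of the cyclic AMP element).
Gpr183, chr14:121965194-121965443, minus strand: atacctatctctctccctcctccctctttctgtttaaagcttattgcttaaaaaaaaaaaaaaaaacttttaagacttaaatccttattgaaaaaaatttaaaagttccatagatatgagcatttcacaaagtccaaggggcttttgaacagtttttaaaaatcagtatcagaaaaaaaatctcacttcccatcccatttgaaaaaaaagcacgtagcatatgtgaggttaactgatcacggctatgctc
Ptger4, chr15:5244188-5244437, minus strand: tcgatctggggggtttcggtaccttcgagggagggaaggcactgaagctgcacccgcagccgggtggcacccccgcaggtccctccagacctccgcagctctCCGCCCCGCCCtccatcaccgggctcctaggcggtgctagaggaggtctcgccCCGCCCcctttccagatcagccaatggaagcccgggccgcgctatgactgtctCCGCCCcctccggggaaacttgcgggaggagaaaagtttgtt
Ptafr, chr4:132563817-132564066, plus strand: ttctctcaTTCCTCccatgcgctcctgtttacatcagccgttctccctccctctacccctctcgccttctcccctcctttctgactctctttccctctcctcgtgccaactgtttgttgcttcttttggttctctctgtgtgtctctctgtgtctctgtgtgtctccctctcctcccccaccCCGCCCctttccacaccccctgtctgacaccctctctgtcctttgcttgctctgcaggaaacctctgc

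The window of Gpr183 held none of the 5 motifs as spelled, and 32% of its bases were G or C. Its counterpart at Ptger4 was rich in G and C, at 66.8%, and held 4 Sp1 matches, all on the opposite strand, of which the first pair overlap by a base. The Ptafr window, at 56%, held 1 PU.1 core and 1 Sp1 match. Over 32851 windows of the same length in the RefSeq table, the median share of G and C was 52.4%. The Sp1 letters occurred in 32.7% of those windows, the PU.1 core in 23.3%, TATAAA in 12.4%, TGACG in 17.8% and TGANTCA in 6.75%. These matches describe letters only, and the 2 genes that rose shared none of them. A window for Ltb4r1 was matched as well but is not shown, since that gene was not tested. The same RefSeq table places Gpr183 across part of Ubac2 and Ltb4r2 across part of Cideb, and Ltb4r1 next to Ltb4r2 on chromosome 14 with 0 genes between them.

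Gpr183 had 5705 scaled counts in its lowest P14 sample, a median of 6475 and 7781 in its highest. At P28 the lowest sample had 8138, the median was 9857 and the highest sample had 11606. Every P28 sample was therefore above every P14 sample, although the gap between the nearest pair, P14 sample 81 and P28 sample 138, was small beside the spread within an age. The mean was 6491 ± 779.5 at P14 and 10069 ± 1339 at P28 (6 animals per age, SD), a ratio of 1.55. The log2 fold change was 0.63 ± 0.11 (SE; edgeR adjusted p = 0.00071), and it was 0.55 ± 0.11 (adjusted p = 0.0017) without P14 samples 4 and 5. By its p-value the gene ranked 35 among the 366. With counts scaled to the positive controls alone its difference turned to -0.13 ± 0.34 (adjusted p = 0.73), a scale that moved the median of all 366 genes to -0.74 and called 0 of the 3 receptor genes. On that scale 36.9% of the 366 genes were called, 2.19% higher and 34.7% lower. Gpr183 had at least 2231 raw counts in each sample, so counting error was small beside the spread between animals.

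Gpr183 is also a receptor of B and T cells, so their markers are given beside it. The summed level of 4 B cell markers was lower at P28, at 225 to 352 scaled counts against 388 to 627 at P14. Cd79b, which supplied most of that sum, fell (-1.20 ± 0.18), Cd79a rose (0.76 ± 0.18, and -0.01 with the positive controls alone), Ms4a1 did not pass (0.14 ± 0.20) and Cr2 was not tested. Of 7 T cell markers, the receptor chains Cd3d and Cd3e and the coreceptors Cd4 and Cd8a did not pass the presence rule, and the summed level ran from 185 to 227 at P14 and from 171 to 237 at P28. The 3 that were tested were all called. Cd5 rose (1.07 ± 0.20), Cd96 rose from above background in 0 of 6 samples at P14 to 6 of 6 at P28, both calls being lost with the positive controls alone, and Lck fell (-1.01 ± 0.15). The part of these markers in the rise of Gpr183 was not tested. In sorted bulk samples, more cells of a type and more RNA per cell cannot be told apart.

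Ptger4 was measured nearer to background. It had 23.2 scaled counts in its lowest P14 sample, a median of 37.7 and 43.1 in its highest. The P28 samples ran from 54.8 over a median of 60.8 to 81.2. Again the ages did not overlap. Its mean was 36.3 ± 7.18 at P14 and 65.0 ± 11.3 at P28 (6 animals per age, SD), a ratio of 1.79, and the log2 fold change was 0.80 ± 0.16 (edgeR adjusted p = 0.0013). Without P14 samples 4 and 5 it was 0.70 ± 0.15 (adjusted p = 0.0029), and with the positive controls alone 0.04 ± 0.35 (adjusted p = 0.92).

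The depth behind these values of Ptger4 was low. Its raw counts ran from 9 to 47 at P14 and from 55 to 77 at P28, and 11 of the 12 samples exceeded their lane's threshold. The exception was P14 sample 5, whose 9 counts (exact Poisson 95% interval 4.12 to 17.1) lay under a threshold of 12.9. By contrast the 77 counts of P28 sample 138 had an interval of 60.8 to 96.2. Such intervals cover counting error only, because PCR copies of a molecule are counted separately. With the mean of the negative probes subtracted from each lane, the log2 fold change of Ptger4 was 1.08 ± 0.29 (adjusted p = 0.01). That fit kept P14 sample 5, where a mean of 7.125 was taken from the 9 counts. A stricter filter that asked for all 12 samples above threshold left the gene out. Ages without overlap in scaled counts were found for 20.8% of the 366 genes, 12.8% with P28 above P14, and Gpr183 and Ptger4 were among the latter.

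Ptafr differed more among the P14 animals than between the ages. Its P14 samples ran from 2689.6 over a median of 6729 to 6975 scaled counts, and its P28 samples from 4755 over 5645 to 5895. The 4 P14 samples other than 4 and 5 lay between 6719 and 6975, above every P28 sample, while sample 4 had 3488 and sample 5 had 2689.6, below every P28 sample. The mean of samples 4 and 5 was 0.453 times that of the other 4. Over all samples the means were 5580.1 ± 1948 at P14 and 5525 ± 416 at P28 (6 animals per age, SD), and the log2 fold change was -0.02 ± 0.21 (edgeR adjusted p = 0.97). Without P14 samples 4 and 5 Ptafr passed as lower at P28, at -0.31 ± 0.08 (adjusted p = 0.0076). In that fit 41.3% of 368 genes were called, 18.2% higher and 23.1% lower. Leaving out sample 4 alone gave -0.12 and sample 5 alone -0.16, neither of which passed.

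Other genes also set samples 4 and 5 apart, in both directions. Csf1r, which microglia need to survive, had 62299.7 and 47370 scaled counts in them, against 98254 to 105782 in the other P14 samples and 98199 to 109816 at P28. For Csf1r the other P14 samples overlapped with P28. The microglial markers Cx3cr1, the fractalkine receptor, and Itgam, the integrin chain CD11b, went the other way. Cx3cr1 had 31535 and 30993 in samples 4 and 5 against 22463 to 25315 in the other P14 samples, and Itgam had 108961 and 95593 against 61550.4 to 75608. At P28 Cx3cr1 ran from 19669 to 29100 and Itgam from 47067 to 85811. The summed level of 5 neutrophil markers, given because platelet-activating factor acts on neutrophils, was 6978 and 9050 in samples 4 and 5, against 2975 to 3869 in the other P14 samples and 4351 to 8600 at P28. Csf3r supplied most of that sum, with 6873 and 8960 in those samples. The neutrophil granule genes S100a8 and S100a9 did not pass the presence rule, and Ltf had 31.2 and 28.3 against 25.1 to 31.9. Cxcr2, a chemokine receptor by which neutrophils are recruited, was lowest in samples 4 and 5 among the P14 samples, at 44.8 and 38.6 against 45.2 to 62.0, and was called lower at P28, where no sample exceeded background. P28 sample 138 had the highest Csf3r, Cx3cr1 and Itgam of its age, at 8518, 29100 and 85811. Its Csf1r (98199) and Ptafr (4755) were the lowest of its age, at a total count of 1266925. The total counts of samples 4 and 5 were low and their Csf3r high where Ptafr was low, and the part of either in the result was not tested.

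The ratio of raw counts of receptor genes inside a sample does not depend on any scale factor. Its size also carries the efficiency of each probe, so only its change between samples is read, and it is given without a test since it was added after the data were seen. Gpr183 over Ptafr was 0.926 to 1.12 in 4 P14 samples, 1.64 in sample 4 and 2.14 in sample 5, and 1.69 to 1.99 at P28. On the log2 scale the ratio was 0.30 ± 0.49 at P14 and 0.86 ± 0.10 at P28 (6 animals per age, SD), a difference of 0.55, or 0.85 without samples 4 and 5. The 4 remaining P14 samples therefore lay below every P28 sample, while sample 4 lay just below the P28 range and sample 5 above it. Ptger4 over Ptafr gave -7.20 ± 0.38 at P14 and -6.42 ± 0.31 at P28, a difference of 0.78, or 1.25 with background subtracted. Ptger4 over Gpr183 differed by 0.22, less than the SD within either age (0.30 and 0.33). This difference fell to 0.095 without P28 sample 138 and to 0.13 without P14 sample 5, whose Ptger4 count lay under its threshold. With background subtracted it was 0.69. The SDs given here are of ratios without subtraction, so the subtracted differences cannot be read against them. Both subtracted differences include P14 sample 5, where 7.125 was taken from 9 counts of Ptger4. The highest value of Ptger4 over Gpr183, -6.65 on the log2 scale, came from P28 sample 138, which had the highest Ptger4 and the lowest Gpr183 of its age.

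**Figure D2:**
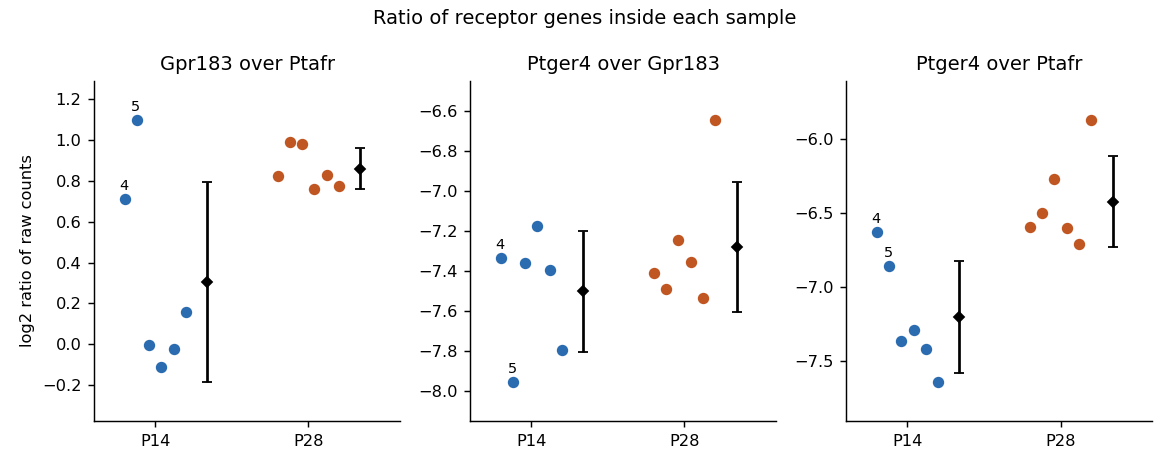
Log2 ratio of the raw counts of receptor genes within each sample at P14 (blue, n = 6) and P28 (orange, n = 6), with mean and SD as black diamonds and bars. The vertical axes do not start at 0. P14 samples 4 and 5 are numbered and are the highest P14 points for both ratios over Ptafr; the Gpr183 to Ptafr ratio averaged 0.30 at P14 and 0.86 at P28.

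Spread within an age differed between the receptor genes. The coefficient of variation of scaled counts was 12% at P14 and 13.3% at P28 for Gpr183, 19.8% and 17.3% for Ptger4, and 34.9% and 7.53% for Ptafr. Correlations were taken over 12 samples of deviations from the age mean of log2 scaled counts, with a pseudocount of 1, as a description without a test. The points share a lane and a scale factor within a sample. Gpr183 and Ptafr correlated at 0.63, and at 0.87 over 10 samples without P14 samples 4 and 5. The correlation of Ptger4 with Ptafr was 0.61 and turned to -0.44 without them, and that of Ptger4 with Gpr183 was 0.16 and turned to -0.26.

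By the same measure, the genes most like Ptafr were Cd27, a receptor of the TNF family (r = 0.99, rho = 0.96), Csf1r (r = 0.99, rho = 0.98) and Ifnar1, a chain of the type I interferon receptor (r = 0.99, rho = 0.98). Of 365 genes, 46 had an r above 0.9 with Ptafr, and the median was 0.47. Without P14 samples 4 and 5 the 3 values were 0.88, 0.78 and 0.69 over 10 samples. Nearest to Ptger4 were Ifnar2, the other chain of that receptor (r = 0.94, rho = 0.92), the kinase Syk (0.90 and 0.80) and Irak2, a kinase of Toll-like receptor signalling (0.88 and 0.68), with a median of 0.36 over all genes. Without P14 samples 4 and 5 these were 0.91, 0.84 and 0.69. Irak2 also rose with age (0.49 ± 0.12, and -0.31 with the positive controls alone), while Ifnar2 (0.23 ± 0.11) and Syk (-0.03 ± 0.11) did not pass. Nearest to Gpr183 were the complement gene C6 (r = 0.83, rho = 0.84), the adhesion molecule Ceacam1 (0.82 and 0.88) and the T cell ligand Cd40lg (0.81 and 0.80), and no gene exceeded 0.9. Without P14 samples 4 and 5 these were 0.77, 0.82 and 0.74. Ceacam1 fell with age (-0.55 ± 0.11) where Gpr183 rose, and C6 and Cd40lg were above background in 7 and 9 of 12 samples.

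Neither leukotriene B4 receptor gene could be given a level. Ltb4r1 had 9 raw counts in its lowest P14 sample, a median of 15 and 25 in its highest, and 17, 20 and 30 at P28. It exceeded its lane's threshold in 1 of 12 samples, P14 sample 25, and all 8 negative probes of its lane in 2. Ltb4r2 had 6, 21 and 31 raw counts at P14 and 16, 19.5 and 27 at P28. It exceeded the threshold in 2 of 12 samples, P14 samples 25 and 61, and all negative probes in 4. The ages overlapped throughout for both genes. At this depth a difference between the ages was not detectable, which does not show that these receptors are absent from microglia.

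Genes around these receptors were taken from a list of other lipid mediator receptors, of enzymes that make or degrade the mediators, and of known partners or targets. Of this list, 10 genes were in the table and 5 were tested. By edgeR's test 0 were called higher and 0 lower, against 16.7% and 13.9% of all 366 genes, and DESeq2 called 0 as well. An unadjusted p under 0.05 by edgeR was found for 158 of the 366 genes and for 1 of these 5. That gene was Bcl6, a transcriptional repressor that lowers Gpr183 in B cells, with 889 ± 99.5 scaled counts at P14 and 1054 ± 113 at P28 (0.24 ± 0.11, adjusted p = 0.10), and 0.17 ± 0.10 without P14 samples 4 and 5. It passed as higher with all 14 reference genes (0.32), with the authors' factors (0.37), with limma on the authors' values (0.37) and without P28 sample 137 (0.30). In that order, these settings called 89 of 366, 93 of 366, 89 of 336 and 59 of 364 genes higher. The median log2 fold change of all their genes was 0.080, 0.13, 0.18 and -0.0071. In the edgeR fit over all samples with the 6 reference genes, the median of the 5 pathway genes was -0.02.

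Gpr44, the older symbol of the prostaglandin D2 receptor Ptgdr2, had 95.3 scaled counts in its lowest P14 sample, a median of 277 and 377 in its highest, and 236, 277 and 424 at P28. Its difference did not pass (0.26 ± 0.29, adjusted p = 0.56) and was -0.08 ± 0.18 without P14 samples 4 and 5, which had the 2 lowest values, 128 and 95.3. Prkcd, a protein kinase C isoform activated by diacylglycerol, had 8978 ± 870.2 scaled counts at P14 and a log2 fold change of -0.02 ± 0.09, or -0.07 ± 0.09 without those samples. Pparg, a nuclear receptor for fatty acid derivatives, had -0.29 ± 0.18, and -0.24 ± 0.21 without them. Cxcr5, a chemokine receptor that acts beside Gpr183 in B cell positioning, had -0.17 ± 0.23, and -0.38 ± 0.18 (adjusted p = 0.099) without them. Pparg and Cxcr5 had mean levels below 50 scaled counts at each age.

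The prostaglandin synthase gene Ptgs2 (cyclooxygenase-2) and the secreted phospholipase genes Pla2g2a and Pla2g2e were not tested, nor were Cd69, a membrane protein that retains lymphocytes by binding S1P receptors, and the chemokine receptor gene Ccr7. Ptgs2 had between 2 and 19 raw counts and exceeded its lane's threshold in 1 of 12 samples. Pla2g2e did so in 1, Pla2g2a and Cd69 in 0 and Ccr7 in 4. No enzyme of lipid mediator synthesis in the list was therefore measured above background often enough to set beside the receptors.

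**Figure D3:**
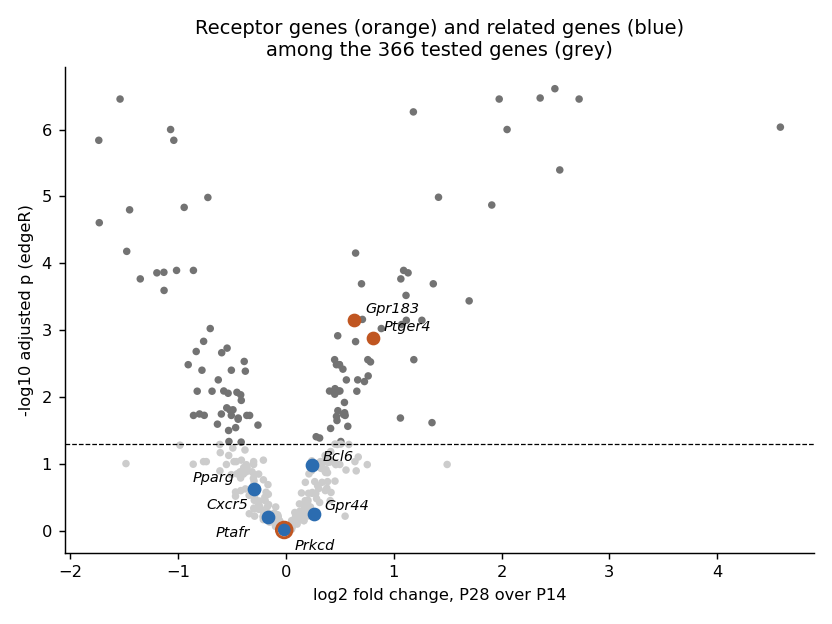
Log2 fold change (P28 over P14) against -log10 of the adjusted p from edgeR for the 366 tested genes in grey, darker where called, with the dashed line at an adjusted p of 0.05. Receptor genes are orange (Ptafr as an open ring around Prkcd) and genes of the pathway list blue. Gpr183 (0.63) and Ptger4 (0.80) lie above the line on the right, and Ptafr and the 5 related genes lie below it.

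The authors' deposited table puts the P28 mean at 1.69 times the P14 mean for Gpr183 (p-value 0.0001), at 1.96 times for Ptger4 (0.0002) and at 1.09 times for Ptafr (0.5395). Those values rest on the authors' own scale factors, on which the edgeR log2 fold changes were 0.76 for Gpr183, 0.93 for Ptger4 and 0.12 for Ptafr. With total counts as the scale they were 0.48, 0.66 and -0.14, and with Polr1b left out of the reference genes 0.51, 0.68 and -0.14. The size of the rises therefore depended on the scale, and the calls of Gpr183 and Ptger4 were lost with the positive controls alone.

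**Figure D4:**
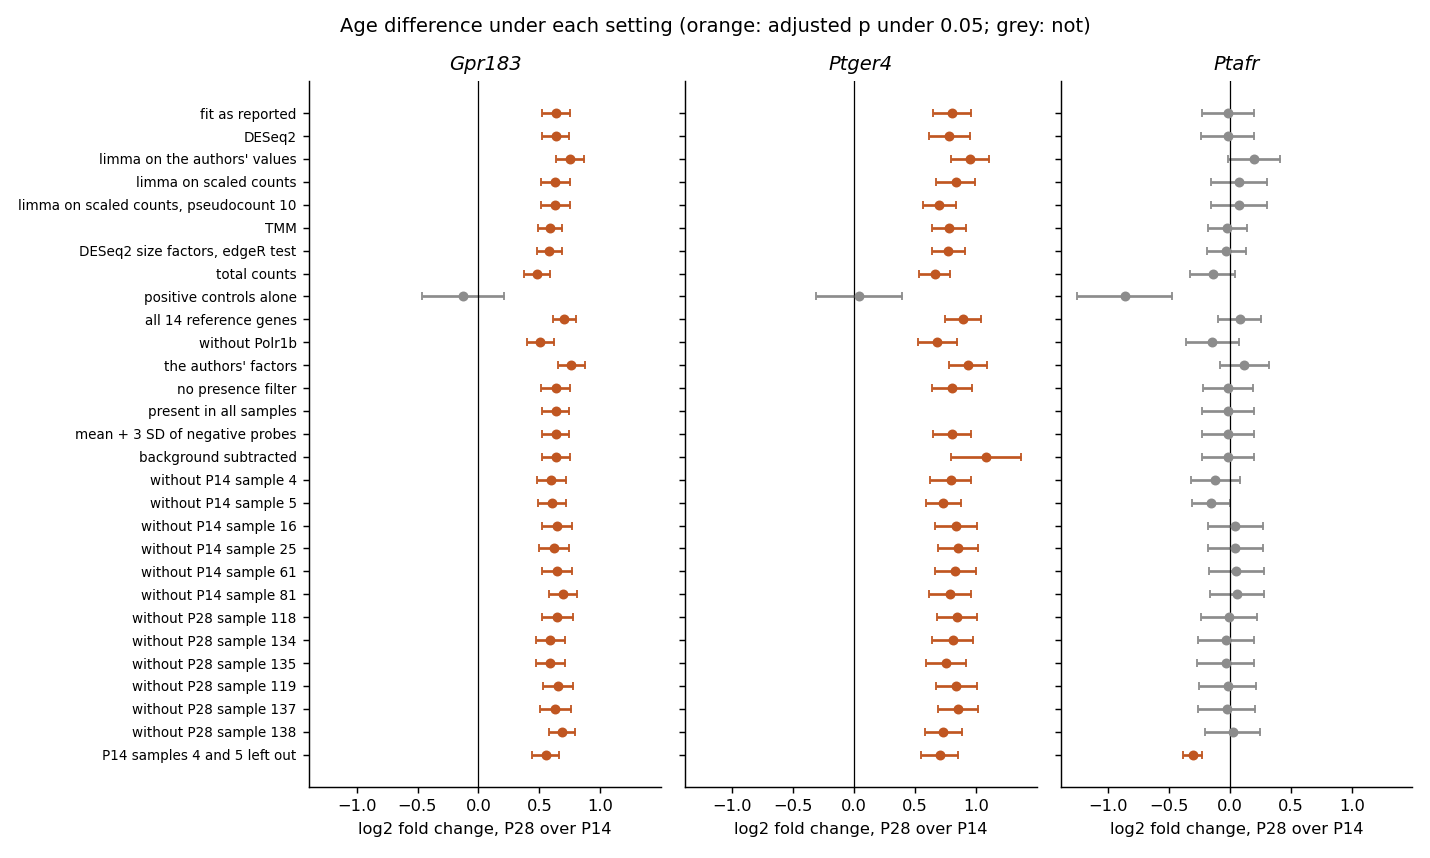
Log2 fold change (P28 over P14) with its SE for Gpr183, Ptger4 and Ptafr in the fit as reported and under 28 other settings, orange where the adjusted p was under 0.05 and grey otherwise; a missing point is a gene that the setting did not test. Gpr183 and Ptger4 are orange except with the positive controls alone, and Ptafr is orange without P14 samples 4 and 5, at -0.31.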

How the data were processed

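Per the labels, RNA of the sorted microglia was turned into cDNA, amplified by PCR and counted on the nCounter panel. The raw counts used here were deposited by the authors without scaling, 1 whole number per probe and sample. The authors also deposited a score table of 336 genes, which per the labels holds counts scaled to positive controls and reference genes, and, per the file headers, a fold ratio of means with a p-value from a t-test of unstated kind. The counting software is not stated in the labels or headers.

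Counts were scaled to the geometric mean of Alas1, Gapdh, Oaz1, Polr1b, Sdha and Tbp and compared between the ages by edgeR's quasi-likelihood test (version 4.0.16 under R 4.3.3, with age as the only term) over all 366 genes that passed the presence rule. The SE is the log2 fold change divided by the square root of the F statistic. Alternatives used DESeq2 1.42.0, limma 3.58.1, other scalings, filters and pseudocounts, and samples left out. Scripts were tested on simulated data. A B cell marker of the list is not reported here. The genes and lists were chosen with earlier results of these data known. Named were the receptor genes, every gene of the pathway list in the table, and the 3 genes most like each tested receptor.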

Additional observations from a re-analysis of the deposited data

Results flagged for a closer look

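The 15 genes of the receptors and the pathway list and the 3 ratios were looked at within each age for a sample far from the rest, 36 groups in all, and 3 were found; chance gives about 5% of groups. The Ptger4 to Gpr183 ratio of P28 sample 138, at -6.65 on the log2 scale, was far above the other P28 samples, from 77 raw counts of Ptger4 and the lowest Gpr183 of that age. Pla2g2a had 20.6 scaled counts in P14 sample 5, the highest of its age, and Pla2g2e had 21.7 in P14 sample 4, the highest of its age. Pla2g2a was under its lane's threshold in that sample.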

How the results depend on the processing

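No paired analysis was made. The animal numbers of the 2 ages are not shared, and the sample titles do not give the litter, so litters common to both ages could not be looked for. Gpr183 and Ptger4 kept their direction and their call with each of the 12 samples left out in turn (0.59 to 0.69 and 0.73 to 0.85). With positive controls alone Gpr183 reversed to -0.13, Ptger4 lost its call at 0.040 and 0 receptor genes were called higher. There 2 genes of the pathway list, Cxcr5 and Pparg, were called lower, as were 34.7% of all 366 genes, with 2.19% higher. Ptafr was at -0.86 ± 0.39 on that scale and did not pass (edgeR adjusted p = 0.075). Where all samples had to exceed their threshold, 1 receptor gene was called higher, since Ptger4 was not tested. Ptafr, never called over all samples, turned positive with limma on the authors' values (0.20), limma on scaled counts (0.077, and 0.076 with a pseudocount of 10), all 14 reference genes (0.080) and the authors' factors (0.12), and ran from -0.16 to 0.059 with single samples left out (0.05 without P14 sample 16, 0.04 without 25, 0.05 without 61, 0.059 without 81 and 0.02 without P28 sample 138). Without P14 samples 4 and 5, its 2 lowest values, it was called lower (-0.31), so 1 receptor gene was called lower. In the pathway list 1 gene, Bcl6, was called higher with limma on the authors' values, all 14 reference genes and the authors' factors. Those settings called 89 of 336, 89 of 366 and 93 of 366 genes higher. With single samples left out 0 to 1 gene of the list was called higher. The cause of these changes was not tested. Low counts limit the precision of Ptger4 and leave both leukotriene B4 receptors without a level.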
